A study of Drosophila melanogaster with 24 samples.

Results

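The comparison between the first pupal stage of the fruit fly Drosophila melanogaster and larvae rests on 5 two-colour microarrays of the 24 in a life-cycle series. Arrays a and b labelled Pupal1 were set against the 3 arrays labelled Larval. Array c of Pupal1 was left out, because it held whole-number signals of 1 channel in place of a ratio. Pupal1 is whole pupae picked by hand as the first of 3 pupal stages, and Larval is a pool of larvae of different ages. The labels give no strain, sex, hour or instar for either, so the time that separates them is not known and a larval pool can hold animals of any larval age. On each array the RNA of the stage was hybridized together with RNA of 0-4 h embryos, the common reference of all 8 stages. Both Pupal1 arrays carried the stage in Cy5. Larval array a also did, while Larval arrays b and c carried it in Cy3.

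Metamorphosis begins when a pulse of the steroid hormone ecdysone at the end of larval life makes the animal stop feeding, settle and form a puparium. The hormone binds its nuclear receptor, switches on a layer of early transcription factors and, through them, large sets of tissue genes. Under the puparium the epidermis detaches from the old cuticle and secretes a pupal one, the larval gut and salivary glands are dismantled, and adult organs grow from imaginal cells.

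A value below is the log2 ratio of a stage over the embryo reference, centred on the median of its array and averaged over the 2 spots of a probe. A value of 0 is thus the median of the array, and above or below the embryo reference means above or below that median. Before centring, the medians of stage over reference were -1.01 and -1.64 on Pupal1 a and b and -0.78, -1.54 and -1.20 on Larval a, b and c. The difference Pupal1 minus Larval, given ± its standard error, comes from a limma fit to all 23 ratio arrays that also estimates how each probe responds to the dye. It therefore need not equal the gap between the plain means of the arrays. A probe passed, and its gene is said to have risen or fallen, where the p-value adjusted over all 23808 probes was below 0.05. The labels do not say which animals went into each experiment, so a p-value reflects how far arrays of a stage scatter, and that scatter may be technical.

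The 5 arrays differed in quality. Across probes, Pupal1 a and b correlated at r = 0.57 and Larval b and c at 0.64. Larval a correlated with the other Larval arrays at 0.34 and 0.35, about as much as with the Pupal1 arrays (0.37 and 0.40). It is the only Larval array with the stage in Cy5, so dye and array cannot be told apart in these values. Larval b and c, both with the stage in Cy3, correlated with the Cy3 array a of pupal stage 2 at 0.61 and 0.67. With the Cy5 array c of that stage they correlated at 0.30 and 0.28. The duplicate spots of Pupal1 a differed by a median of 1.18 on the log2 scale, the widest of all 23 arrays, against 0.67 on Pupal1 b and 0.45 to 0.80 on the Larval arrays. Larval a was treated in 1 alternative as part of a block of 4 arrays. The others were arrays a and b of 4-8 h embryos and array a of 8-12 h embryos, all with the stage in Cy5. Arrays a and b of pupal stage 2 correlated at 0.90 and those of pupal stage 3 at 0.89, closer than any pair of these 5. Array c of each carried the stage in the other dye. It correlated with a and b at 0.50 and 0.48 for pupal stage 2 and at 0.48 and 0.48 for pupal stage 3. As all stages share the estimate of scatter, the standard errors may be too small for these 5 arrays. The correlations are across probes of shared arrays and describe the arrays only.

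Of 23808 probes, 237 (0.995%) passed, of which 109 (0.458%) were higher and 128 (0.538%) lower in Pupal1. They stood for 86 named genes that rose and 102 that fell. Of probes with 1 gene symbol, the only ones in the gene lists below, 1.42% passed in either direction, against 0.444% of the others. The smallest passing difference was 1.85 and the median size was 3.16, so the comparison picks out large changes. A gene that did not pass may still differ. Both Pupal1 arrays lay above all 3 Larval arrays for 14.2% of all probes and below all of them for 12.6%. Those 2 shares are the background for every count of arrays that do not overlap. The median difference over all probes was -0.08.

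The calls depended on which arrays were used. With the 5 arrays fitted alone 0 probes passed, with 1995 at an unadjusted p below 0.05 without a dye term and 1550 with one. Leaving out Pupal1 a left 100 calls, leaving out Pupal1 b gave 817, and leaving out Larval b gave 147. Without Larval a, the only Larval array with the stage in Cy5, 265 passed, 138 of them among the 237. In all, 31 of the 237 calls (21 higher, 10 lower) passed with each of the 5 arrays left out in turn. When only arrays with the stage in Cy5 were fitted, where Pupal1 meets the single array Larval a, 77 of the 237 passed. Those arrays are among the ones that made the calls, so this fit is no independent check of them.

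**Figure D1:**
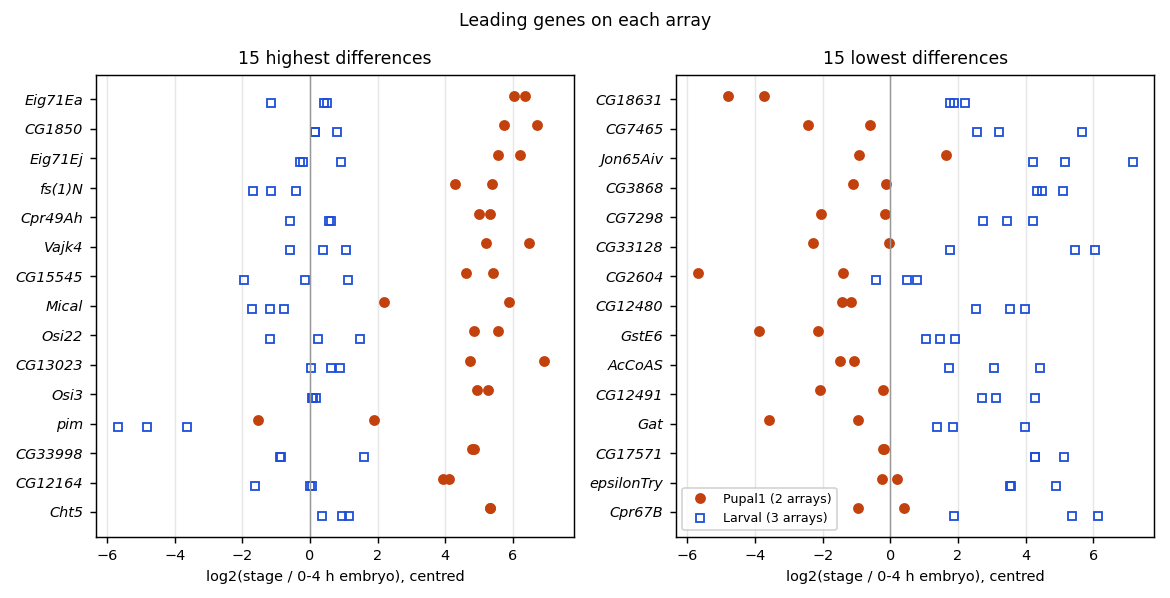
Centred log2 ratios over the 0-4 h embryo reference on each of the 5 arrays for the 15 genes with the highest and the 15 with the lowest fitted difference (filled circles, 2 Pupal1 arrays; open squares, 3 Larval arrays). By the rule that chose them the groups do not overlap, and most genes on the left lie near 0 on the Larval arrays while most on the right lie near or below 0 on the Pupal1 arrays.

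The 2 genes of the Eig71E cluster that rose were among the leading changes. This cluster on chromosome arm 3L holds small secreted-protein genes that ecdysone induces in the late larval and prepupal salivary gland. Eig71Ea read 6.34 and 6.03 on the Pupal1 arrays, against 0.43, -1.15 and 0.51 on the Larval arrays, a difference of 6.46 ± 0.86 (adjusted p = 0.000864). Eig71Ej read 5.56 and 6.20 in Pupal1, against -0.31, -0.21 and 0.90 in Larval, a difference of 5.78 ± 0.79 (adjusted p = 0.0011). Both were thus far above the embryo reference on both pupal arrays and close to it on all larval ones. The other 7 members did not pass. Eig71Ed (2.55 ± 1.02) and Eig71Ek (2.28 ± 1.11) had Pupal1 arrays above all Larval ones. Eig71Ee was high over the embryo reference at both stages, with 5.74 and 6.22 in Pupal1 and 5.18, 7.77 and 9.37 in Larval, and its difference was -0.42 ± 0.78. Eig71Ei (-2.10 ± 1.09) and Eig71Eh (-1.24 ± 1.02) had values on the other side of 0. The median of the cluster was 1.45, but 0.69 with the 4 arrays named above as a block and 0.60 over close duplicate spots. At pupal stage 2 the means of Eig71Ea and Eig71Ej had come down to 0.30 and 1.03.

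The salivary glue genes, which encode the secretion that fixes the puparium to its support, did not follow one direction. Of 17 probes, 1 fell and 0 rose, with a median of -0.20. The one that fell was ng2, a new glue gene, with -0.05 and -2.49 in Pupal1 and 2.32, 1.85 and 2.54 in Larval, a difference of -3.13 ± 0.63 (adjusted p = 0.0201). Sgs3, a main glue protein, was high at both stages, with 5.78 and 5.47 in Pupal1 against 4.21, 2.87 and 2.74 in Larval on 1 of its probes, and differences of 2.06 ± 1.02 and 2.35 ± 1.11 that did not pass. Sgs7 read 6.59 and 6.10 in Pupal1 and 3.04, 6.52 and 7.85 in Larval. Sgs8 read 2.49 and 2.57 in Pupal1 and 0.96, 4.05 and 7.50 in Larval. For both, Larval a lay below the Pupal1 arrays and Larval c above them. The glue median was -0.20 in the full fit and 1.19 when only the Cy5 arrays were fitted, so its side of 0 depended on the arrays used.

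The serum and fat body proteins, stores that the larva builds up and the pupa draws on, were mostly high over the embryo reference at both stages, and 0 of 11 probes passed, with 3 at an unadjusted p below 0.05. Lsp2, a larval serum storage protein, read 7.66 and 7.65 in Pupal1 and 6.69, 7.58 and 7.21 in Larval on 1 probe (difference 0.65 ± 0.69). Fbp1, the receptor through which the fat body takes up serum protein, read 6.68 and 6.61 in Pupal1, against 5.71, 6.02 and 6.08 in Larval. Fbp2 read 5.27 and 4.89 in Pupal1, against 3.28, 1.92 and 1.79 in Larval, and its 2.31 ± 0.77 did not pass (adjusted p = 0.17). Both pupal arrays lay above all larval arrays for 5 of the 11 probes and below for 0, beside 14.2% and 12.6% of all probes. The median of 0.67 had no stable sign or size, since it was 1.54 in the Cy5 arrays alone and -0.10 with arrays scaled to one spread.

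The ecdysone receptor and the transcription factors of its cascade had 0 of 26 probes past the limma threshold and 1 at an unadjusted p below 0.05. Their differences ran from -2.15 to 1.20 with a median of 0.23. Both Pupal1 arrays lay above all Larval arrays for 13 of the 26 and below for 0, beside 14.2% and 12.6% of all probes. The highest values were those of Eip78C, an ecdysone-induced nuclear receptor (1.20 ± 0.60), and ftz-f1, the nuclear receptor that marks the prepupal interval between ecdysone pulses (1.19 ± 0.59). Eip78C read -0.16 and 1.32 in Pupal1 and -1.03, -1.20 and -1.57 in Larval. ftz-f1 read -0.79 and 1.69 in Pupal1, and in Larval all 3 arrays were lower, with a mean of -1.42. The 2 pupal arrays were apart from each other for both genes, with b the higher. EcR, the receptor, had differences of 0.49 ± 0.43 and 0.23 ± 0.46 on its probes, and its partner usp -0.06 ± 0.55. The probes of br, an early factor that specifies pupal fate, ran from -2.15 ± 1.27 to 0.46 ± 0.51, and Hr3, a nuclear receptor of the prepupa, read -0.48 ± 0.47 and -0.54 ± 1.02. Eip93F, a factor of later metamorphosis, had 0.22 ± 0.49. Among enzymes of ecdysone synthesis and turnover 0 of 12 probes passed (2 at an unadjusted p below 0.05). Among the listed genes of juvenile hormone, which holds the larval state, 0 of 6 passed (0 unadjusted). Jhbp11, a juvenile hormone binding protein by its name, is outside that list and was picked after its values were seen. It fell, with -3.91 and -3.30 in Pupal1 against 0.01, 0.53 and 0.32 in Larval (-3.75 ± 0.69, adjusted p = 0.013).

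The list of other ecdysone-induced and imaginal disc genes had a median of 0.52. Its differences ran from -1.73 to 4.10, with 12 above 0 and 6 below. Of 18 probes in that list 1 rose, for mthl8, a G-protein-coupled receptor of the methuselah-like family. This probe read 3.15 and 3.74 in Pupal1, against -0.91, -0.37 and 0.25 in Larval (difference 4.10 ± 0.85, adjusted p = 0.0245), but a second mthl8 probe gave -0.02 ± 0.86. The imaginal disc genes ImpE2 (2.84 ± 0.73), ImpE1 (2.71 ± 0.78 on 1 probe, 0.55 ± 0.88 on the other) and ImpL1 (2.05 ± 0.75) did not pass. ImpE2 read 3.25 and 2.93 in Pupal1, against -0.64, 1.36 and 0.38 in Larval, without overlap. Both Pupal1 arrays were above all Larval ones for 9 of the 18 probes and below for 1, beside 14.2% and 12.6% of all probes. Mical, which carries out ecdysone-dependent pruning of sensory dendrites by taking actin filaments apart, rose on 2 probes. The first read 2.17 and 5.89 in Pupal1, against -1.19, -0.78 and -1.71 in Larval (5.31 ± 0.90), and the second read 3.62 and 3.45 in Pupal1, against 0.31, 0.71 and 0.51 in Larval (2.91 ± 0.58).

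The cuticle is a mesh of chitin and protein, and its protein families differ between larval, pupal and adult layers. The Vajk family of cuticle proteins had 4 of its 5 probes higher. Vajk4 read 6.46 and 5.20 in Pupal1, against 0.39, 1.07 and -0.58 in Larval (5.49 ± 0.62, adjusted p = 0.000251), and its second probe gave 4.30 ± 0.63. Vajk1 (3.69 ± 0.73) and Vajk3 (3.19 ± 0.66) rose as well. Vajk2 had 4.83 and 2.39 in Pupal1 and 2.49, 2.98 and 1.77 in Larval and did not pass. The Tweedle family, which shapes the larval and pupal body wall, gave 2 rises and 0 falls among 27 probes, with a median of -0.90 that was -0.15 in the Cy5 arrays alone. TwdlE read 3.68 and 3.24 in Pupal1, against 0.07, 0.84 and 0.26 in Larval (3.39 ± 0.61), and TwdlT rose by 2.07 ± 0.45. Tb, the Tubby member, gave -1.96 ± 0.65, TwdlF -2.25 ± 0.64 and TwdlP -2.64 ± 0.87, which did not pass. The list of both families, which leaves out the probes of Twdlalpha (-1.06 ± 1.00) and Twdlbeta (-0.30 ± 0.48), had 6 of 30 probes higher. Of all probes 0.458% were higher, and of those with a symbol 1.42% passed in either direction. That count was 2 without Pupal1 a and 3 without Larval a.

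The Cpr family, cuticle proteins with a chitin-binding domain, split in both directions. Of 74 probes 4 rose and 2 fell, beside 0.458% and 0.538% of all probes, and the median was -0.02. Cpr49Ah led, with 5.32 and 5.00 in Pupal1 and -0.59, 0.61 and 0.56 in Larval (5.53 ± 0.63, adjusted p = 0.000251). Cpr47Ed (3.70 ± 0.71), Cpr51A (3.69 ± 0.71) and Cpr50Ca (2.98 ± 0.56) were the other members that rose. Cpr50Ca has 3 probes, of which 1 passed, and the lowest of their differences was 0.004. Cpr47Ed differed between the pupal arrays, at 1.17 and 4.41, and 2 of the 4 rises were left without Pupal1 b. The falls were those of Cpr67B, with 0.40 and -0.96 in Pupal1 and 1.89, 5.38 and 6.14 in Larval (-4.35 ± 1.00), and Cpr65Av, with -0.54 and -0.16 in Pupal1 and 3.29, 4.86 and 1.53 in Larval (-3.82 ± 0.71). In the Cy5 arrays alone Cpr67B gave -2.17, under its full value by more than 1.5 times.

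Among 11 probes for larval cuticle proteins 1 fell and 0 rose. The median was -1.55, but -0.90 without Larval a, -0.77 with 1 value per gene and -0.61 with the 4 arrays named above as a block. Lcp1Psi, annotated as a pseudogene of the Lcp1 cluster, read 2.08 and 2.03 in Pupal1, against 4.15, 7.08 and 6.03 in Larval (-3.33 ± 0.71, adjusted p = 0.0289, or -2.10 in the Cy5 arrays alone). Its sequence is close to that of other Lcp genes, and which of them the spot measures was not tested. Lcp65Ag1 (-2.37 ± 0.72) and Lcp65Ag3 (-3.03 ± 1.38) had larval arrays a and b above the pupal ones and larval array c near them. Among 16 probes for pupal and adult cuticle proteins 1 rose and 0 fell. Edg78E, a cuticle gene turned on by ecdysone in the prepupal epidermis, read 3.29 and 3.89 in Pupal1, against -0.08, 1.71 and 0.97 in Larval (3.14 ± 0.70, adjusted p = 0.0331). Pcp, a pupal cuticle protein, read 3.20 and 3.00 in Pupal1 and 0.13, 2.58 and 2.85 in Larval, above all larval arrays but within a narrow gap (1.81 ± 0.75, adjusted p = 0.28). Edg84A (0.24 ± 0.82) and Edg91 (-1.19 ± 0.53) did not pass.

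Enzymes and binding proteins of chitin had a median difference of 0.85 over 39 probes (0.51 without Larval a), against -0.08 over all probes. Of these 2 rose and 0 fell, beside 0.458% and 0.538% of all probes. Both Pupal1 arrays lay above all Larval arrays for 16 and below for 5, beside 14.2% and 12.6% of all probes. Cht5, a chitinase that digests old cuticle at a molt, read 5.31 and 5.31 in Pupal1, against 0.35, 1.14 and 0.94 in Larval (4.38 ± 0.55, adjusted p = 0.000542). obst-A, a chitin-binding protein that organizes the new matrix, read 4.01 and 4.40 in Pupal1, against 0.72, 1.87 and 0.16 in Larval (2.77 ± 0.59, adjusted p = 0.0289). Cht10, another molting chitinase, had differences of 2.26 ± 0.65, 1.74 ± 0.64 and 1.85 ± 0.86 on its probes, and the chitin deacetylases serp (2.17 ± 0.63) and verm (1.68 ± 0.78) also lay above the larval arrays without passing. The gene kkv, the chitin synthase of the epidermis, read 2.44 and 2.49 in Pupal1 and -1.08, 2.61 and 4.44 in Larval. Its larval arrays spread over both sides of the pupal ones. On the side below were Cht7 (-2.62 ± 0.99) and the imaginal disc growth factors Idgf6 (-1.50 ± 0.58) and Idgf2 (-1.43 ± 0.59), chitinase-like proteins without enzyme activity, and these did not pass. The count of 2 was 1 without Pupal1 a, without Pupal1 b, without Larval a or without Larval c.

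The Osiris genes, an insect family of membrane proteins made in epithelia that secrete cuticle, were added as a group after their values had been seen. Of 24 probes 4 rose and 0 fell, beside 0.458% and 0.538% of all probes, and the group's median of 0.79 is a description. Osi22 read 5.56 and 4.84 in Pupal1, against 0.22, -1.20 and 1.46 in Larval (5.26 ± 0.84). Osi3 read 5.25 and 4.93 in Pupal1, against 0.04, 0.17 and 0.10 in Larval (4.97 ± 0.76). Osi7 (3.76 ± 0.76) and Osi4 (3.16 ± 0.72) rose too. Osi3, Osi4 and Osi7 lie near each other on chromosome arm 3R, where Osi3 and Osi4 are adjacent genes in the RefSeq annotation.

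Tanning hardens and colours the cuticle with derivatives of dopamine. Of 22 probes in that list 1 rose and 0 fell. The gene y (yellow), which is needed for black pigment, read 3.69 and 4.41 in Pupal1, against -0.14, 1.93 and 0.69 in Larval (3.26 ± 0.63, adjusted p = 0.0158). ple, the tyrosine hydroxylase that makes the dopamine precursor, read 2.81 and 3.43 in Pupal1 and 2.39, 3.70 and 3.17 in Larval. Ddc, the dopa decarboxylase, read 0.83 and 1.60 in Pupal1 and 0.18, 2.94 and 2.84 in Larval. Neither gene's groups were apart. stw, also called straw, a laccase, had 1.95 ± 0.69 and 1.59 ± 0.57 on its probes, above all larval arrays without passing.

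**Figure D2:**
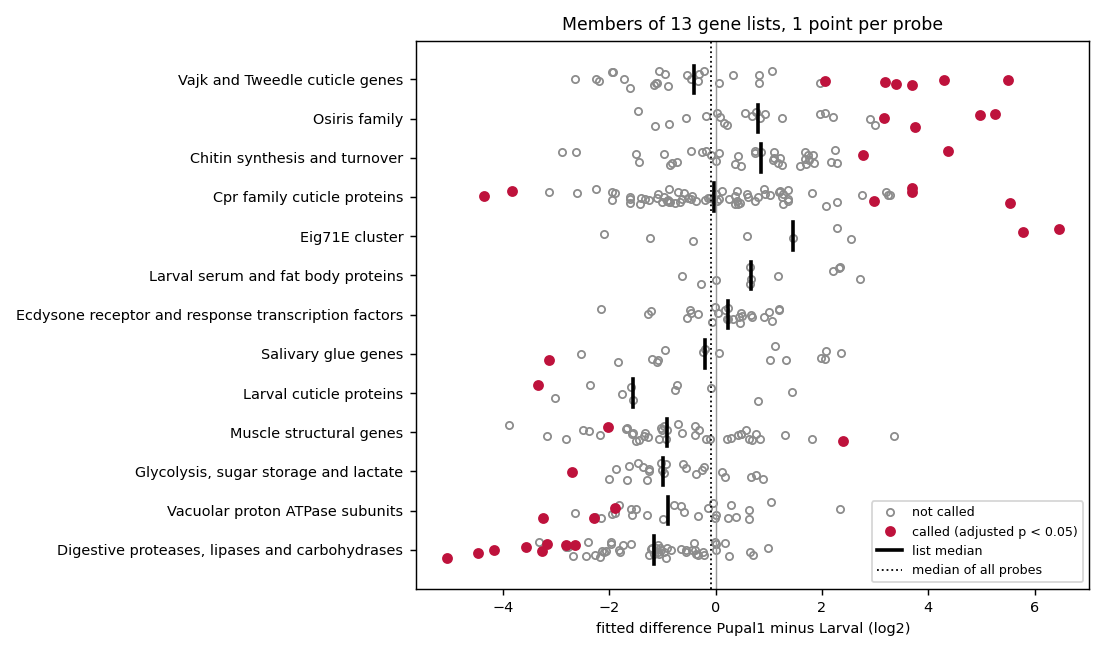
Fitted log2 difference Pupal1 minus Larval of every probe in 13 gene lists (filled, passed at adjusted p below 0.05; open, did not pass; bar, list median; dotted line, median of all probes at -0.08). The 8 digestive probes that passed lie between -2.65 and -5.06, and in the Vajk and Tweedle list 6 passing probes lie above a median below 0.

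The digestive enzymes had more probes lower than any of the other 40 lists. Of 57 probes for gut proteases, lipases, carbohydrases and lysozymes 8 fell and 0 rose. Of all probes 0.538% fell, and of those with a symbol 1.42% passed in either direction. The median difference of the list was -1.15. Both Pupal1 arrays lay below all Larval arrays for 27 of the 57 and above for 0, beside a background of 12.6% and 14.2%. In RNA of whole animals, fewer cells of a type and less RNA per cell cannot be told apart. The share of feeding animals in the larval pool is not given in the labels.

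The Jonah proteases and their relative yip7, serine proteases of the midgut, made up 6 of the 8 falls. Jon65Aiv read -0.94 and 1.66 in Pupal1, against 5.16, 7.16 and 4.21 in Larval (-5.06 ± 0.83, adjusted p = 0.00558). Jon74E read -0.11 and -0.32 in Pupal1, against 5.40, 3.15 and 2.91 in Larval (-4.17 ± 0.73). yip7 read 0.84 and 1.04 in Pupal1, against 5.00, 4.81 and 3.80 in Larval (-3.56 ± 0.77). All larval values of these genes stood well above the embryo reference, while the pupal values lay on either side of it or little above. Jon66Ci read 1.46 and 2.11 in Pupal1 and 5.52, 5.08 and 3.90 in Larval (-3.18 ± 0.69), so it stayed above the reference. Jon65Aiii did too (2.26 and 1.79 in Pupal1, 4.78, 5.36 and 4.01 in Larval). Jon99Cii passed narrowly on 1 probe (-3.26 ± 0.78, adjusted p = 0.0499) and missed on the other (-2.43 ± 0.59, adjusted p = 0.0523). Some Jonah genes are close copies of each other, and which copy each spot measures was not tested. Jon65Aiv, Jon65Aiii and yip7 are close neighbours on chromosome arm 3L.

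The trypsin epsilonTry read -0.25 and 0.19 in Pupal1, against 4.91, 3.55 and 3.54 in Larval (-4.48 ± 0.84, adjusted p = 0.0146). The digestive lysozyme LysS read -0.04 and 0.48 in Pupal1, against 1.54, 3.61 and 3.56 in Larval (-2.65 ± 0.62, or -1.32 in the Cy5 arrays alone). Its relatives LysD (-3.33 ± 0.98 on 1 probe), LysB (-2.18 ± 0.90) and LysE (-2.15 ± 0.78) did not pass. The amylase Amy-p gave -2.82 ± 1.07 on 1 probe, with 1.26 and -0.92 in Pupal1 against 1.28, 6.35 and 2.27 in Larval, where Larval a met the higher pupal array. Peritrophin-15a, which encodes a protein of the lining that wraps food in the midgut, read 0.09 and -1.05 in Pupal1, against 1.68, 3.81 and 5.42 in Larval (-3.30 ± 0.76, or -2.16 in the Cy5 arrays alone). It belongs to no list and was picked after its values were seen. The count of 8 digestive probes was 1 without Pupal1 a and 3 without Larval b.

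The vacuolar proton ATPase acidifies gut lumen, lysosomes and secretory vesicles and is built of many subunits. Of 30 probes 3 fell and 0 rose, beside 0.538% and 0.458% of all probes, and the median was -0.89. Both Pupal1 arrays lay below all Larval arrays for 16 and above for 1, beside 12.6% and 14.2% of all probes. Vha100-5, an isoform of the membrane subunit a, read -2.01 and -0.93 in Pupal1, against 1.07, 3.31 and 1.39 in Larval (-3.24 ± 0.67, adjusted p = 0.0241). Vha14-1, a subunit of the catalytic head, read -1.41 and -0.93 in Pupal1, against 0.31, 0.72 and 0.58 in Larval (-2.28 ± 0.52, or -1.48 in the Cy5 arrays alone). The accessory subunit VhaAC45 read -1.28 and -1.07 in Pupal1, against 0.71, 0.21 and -0.03 in Larval (-1.90 ± 0.41). Vha55 (-1.90 ± 0.46, adjusted p = 0.0523), Vha13 (-2.29 ± 0.56) and Vha36-1 (-2.65 ± 0.68) lay just outside the threshold. Vha100-3 (1.04 ± 0.77) and Vha14-2 (2.34 ± 0.95) had values above 0. The count of 3 was 0 without Larval b, 1 without Pupal1 a, 5 without Larval a and 6 without Pupal1 b, and 0 in the Cy5 arrays alone.

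**Figure D3:**
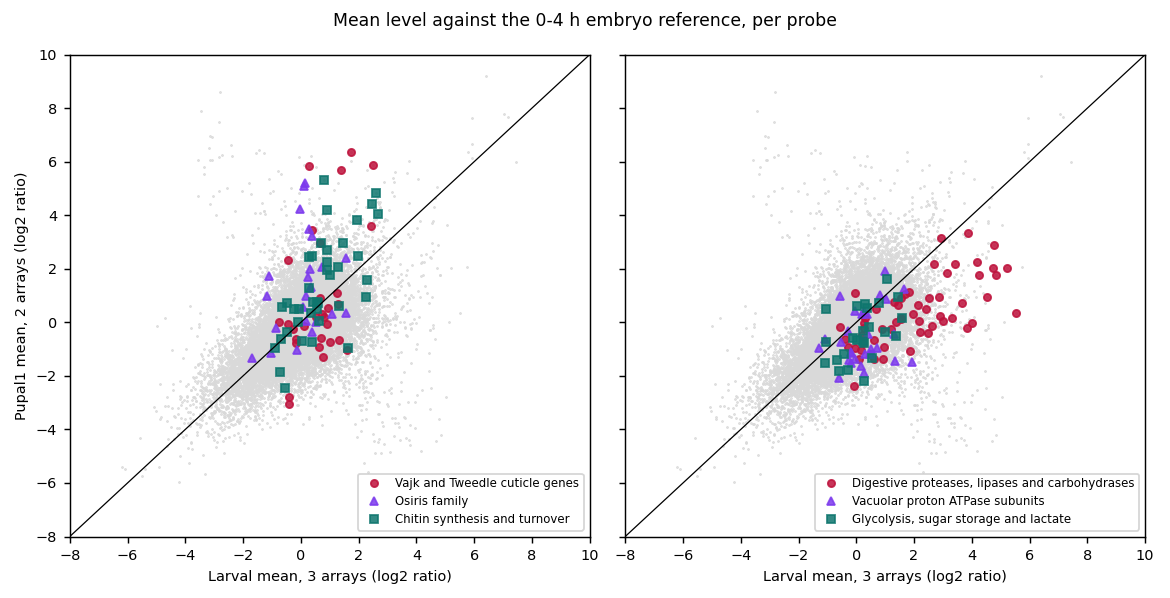
Mean centred log2 ratio in Pupal1 (2 arrays, vertical axis) against Larval (3 arrays, horizontal axis), with all probes in grey, 3 gene lists in each panel and the line of equal values. Some probes of the Vajk and Tweedle, Osiris and chitin lists lie far above the line. By fitted difference 18 of the 30 Vajk and Tweedle, 5 of the 24 Osiris and 13 of the 39 chitin probes are below 0. Most digestive probes lie under the line.

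In energy metabolism single enzymes passed and the lists leaned below 0. Of 24 probes for glycolysis and sugar storage 1 fell and 0 rose, with a median of -0.99 (-0.59 without Pupal1 a). For 9 of them both Pupal1 arrays lay below all Larval ones and for 0 above, beside 12.6% and 14.2% of all probes. Hex-A, the hexokinase that starts glycolysis, read -3.17 and -1.24 in Pupal1, against 0.40, 0.04 and 0.40 in Larval (-2.71 ± 0.56, adjusted p = 0.0245). Pfk (-1.86 ± 0.64), which commits sugar to glycolysis, Tpi (-1.63 ± 0.53) and Gapdh1 (-1.29 ± 0.49) did not pass. Of 76 probes for the respiratory chain and ATP synthase 1 fell, for ND-B14.5B of complex I, at -2.14 and -2.86 in Pupal1 and 0.46, 0.50 and 0.58 in Larval (-3.29 ± 0.77). The median was -0.59. Mitochondrial ribosomal proteins had 2 of 71 lower, mRpS2 (-2.83 ± 0.66) and mRpL4 (-2.55 ± 0.60). Cytosolic ribosomal proteins had 1 of 41 lower, RpL24-like (-3.10 ± 0.71). Counts this small lie near the 1.42% of probes with a symbol that passed in either direction, and say little about these lists. For lipid synthesis and storage 0 of 23 passed (7 at an unadjusted p below 0.05), with a median of -0.78 that became -0.19 in the Cy5 arrays alone.

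Some of the 15 lowest genes belonged to metabolism. AcCoAS, acetyl-CoA synthetase, read -1.47 and -1.08 in Pupal1, against 1.74, 3.07 and 4.42 in Larval (-4.64 ± 0.77, or -3.02 in the Cy5 arrays alone). Of its 3 probes, with differences from -4.64 to -0.72, only this 1 passed. GstE6, a glutathione transferase, read -2.14 and -3.87 in Pupal1, against 1.45, 1.92 and 1.04 in Larval (-4.67 ± 0.89), and was the only one of 36 probes of its family to pass. Gat, the GABA transporter of glia, read -3.57 and -0.96 in Pupal1, against 1.37, 3.98 and 1.86 in Larval (-4.56 ± 1.01). Its larval values spread widely. The lowest difference of all named genes was that of CG18631, with -4.82 and -3.74 in Pupal1 and 1.77, 2.20 and 1.88 in Larval (-5.78 ± 0.73, adjusted p = 0.000542). It carries only a numbered name, like 8 others of the 15. Among these, CG7465 read -2.45 and -0.61 in Pupal1, against 3.23, 5.67 and 2.57 in Larval (-5.31 ± 0.97), and CG3868 read -0.13 and -1.11 in Pupal1, against 4.48, 5.10 and 4.32 in Larval (-5.03 ± 0.97). The groups lay far apart for both. CG12480 (-4.70 ± 0.90), CG12491 (-4.64 ± 0.66) and CG17571 (-4.48 ± 0.80) were likewise above 2.5 on every larval array and below 0 on both pupal arrays. CG7298 (-4.78 ± 1.06) shared that pattern. The second probes of CG12480 (-0.96), CG17571 (-2.47) and CG7465 (-4.55) did not pass. CG33128 had a wide larval spread of 1.76, 5.47 and 6.06 and a difference of -4.76 ± 0.88, or -2.92 in the Cy5 arrays alone. CG2604 was far lower on pupal array a than on b, at -5.69 and -1.40 in Pupal1, against 0.79, -0.41 and 0.50 in Larval (-4.72 ± 0.98).

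Of the 15 lowest genes 2, CG18631 and CG12491, passed with every array left out in turn, and 11 no longer passed without Pupal1 a. Without that array the adjusted p was 0.127 for CG7465, 0.0866 for Jon65Aiv and 0.0947 for epsilonTry. Of the 15 highest genes 12 passed in every such fit. The exceptions were pim (0.192 without Pupal1 a), CG15545 (0.0629 without Pupal1 a) and CG13023, which passed in 0 of the 5 fits (adjusted p 0.0659 to 0.151).

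Muscle genes went both ways. Of 43 probes 1 rose and 1 fell, and the median was -0.92, or -0.21 in the Cy5 arrays alone and -0.29 without Pupal1 a. TpnC41C, a troponin C of adult muscle, read 3.18 and 3.89 in Pupal1, against 1.10, 0.65 and 2.11 in Larval (2.39 ± 0.56, adjusted p = 0.043). Actn, the alpha-actinin of the sarcomere's Z-disc, read -0.87 and -0.20 in Pupal1, against 1.24, 0.99 and 0.89 in Larval (-2.03 ± 0.49). The thick-filament gene Prm (-3.88 ± 0.98 on 1 probe), the titin-like sls (-3.18 ± 0.89 on 1 probe) and the myosin light chain Mlc2 (-2.49 ± 0.66) had both pupal arrays below the larval ones and did not pass. TpnC4 (3.35 ± 0.90) had them above. Both Pupal1 arrays lay below all Larval arrays for 13 of the 43 probes and above for 3, beside 12.6% and 14.2% of all probes.

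In the lists for cell division, germ line and other organs few probes passed. Of 39 probes for DNA replication and mitosis 1 rose and 1 fell. pim, the securin that regulates the separation of sister chromatids, read 1.89 and -1.54 in Pupal1, against -3.64, -5.69 and -4.81 in Larval (4.58 ± 0.86). Mcm5, a subunit of the replicative helicase, read -2.60 and -3.19 in Pupal1, against -0.24, -0.92 and -1.13 in Larval (-2.85 ± 0.66). Both genes were below the embryo reference on most of these arrays. fs(1)N (fs(1)Nasrat), known for its part in the eggshell and in Torso signalling, read 4.29 and 5.38 in Pupal1, against -1.14, -0.41 and -1.68 in Larval (5.66 ± 0.75, adjusted p = 0.000864). gcl, which germ cell formation needs, fell by its fitted difference (-3.51 ± 0.84, adjusted p = 0.0494), but read -5.71 and -5.63 in Pupal1 and -0.02, -5.36 and -4.61 in Larval. Larval b and c were thus close to the pupal arrays, and Larval a alone was far from them. In the Cy5 arrays alone, where Larval a is the only larval array, gcl gave -5.65. Among 33 probes for testis and sperm 1 rose, Mst84Da (3.39 and 3.43 in Pupal1, 0.97, 0.55 and 0.82 in Larval). Its second probe gave 0.94 ± 0.60. Tpl94D (2.92 ± 0.69), w-cup (2.87 ± 0.63), klhl10 (2.49 ± 0.55), t-Grip91 (2.48 ± 0.54) and salto (2.45 ± 0.54) lie outside this list and rose. They were picked as testis or sperm genes after their values were seen, so the count of 1 holds for the list alone. Such genes outside the list that fell or did not pass were not sought. Among 16 probes for adult-specific genes 2 rose, those of TpnC41C and of Acp63F, a seminal fluid protein, which read 1.16 and 3.19 in Pupal1, against 0.23, -1.05 and -1.57 in Larval (3.27 ± 0.78, adjusted p = 0.048, or 1.94 in the Cy5 arrays alone). Its second probe, with 0.19 ± 0.80, did not pass.

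In 18 of the 41 lists 0 probes passed. They hold 446 probes, of which 73 (16.4%) had an unadjusted p below 0.05, against 13.3% of all probes, and their medians ran from -0.80 to 0.67. Autophagy genes, which take apart larval tissue, had the lowest of these medians, -0.80 over 29 probes, with 8 at an unadjusted p below 0.05. Cell death genes had -0.31 over 15 probes (1 unadjusted), and imaginal disc genes had -0.13 over 44 (3 unadjusted). Antimicrobial peptides and recognition proteins had 0.40 over 30 probes (5 unadjusted). Neuronal genes had -0.29 over 45 (6 unadjusted), and proteasome subunits had -0.17 over 41 (7 unadjusted). Hemocyte genes had -0.47 over 15 (2 unadjusted). None of these lists can be said to have moved in this comparison. In the P450 family 1 of 88 probes rose, Cyp303a1, which sensory bristles need (3.04 and 2.21 in Pupal1, -0.66, -0.61 and 0.42 in Larval, 3.03 ± 0.58). That count lies near the 1.42% of probes with a symbol that passed in either direction.

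The stage labels were checked against markers. Of the larval markers 2 of 7 probes fell, for Jon65Aiv and Jon99Cii, and the glue markers did not pass. Of the pupal markers 1 of 8 rose, Edg78E, and 0 fell. Of the adult markers TpnC41C rose, while Yp1 (-1.14 ± 1.06) and Yp2 (0.18 ± 0.53, -0.17 ± 0.70) did not pass. The 3 embryo markers were below the embryo reference on all 5 arrays, with dhd at -4.97 and -5.87 in Pupal1 and -4.43, -8.41 and -5.79 in Larval. The hemocyte markers Hml (-0.17 ± 0.58), Pxn (1.10 ± 0.71) and NimC1 (0.34 ± 0.99) did not pass. What part differences in tissue make-up have in the results was not tested.

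**Figure D4:**
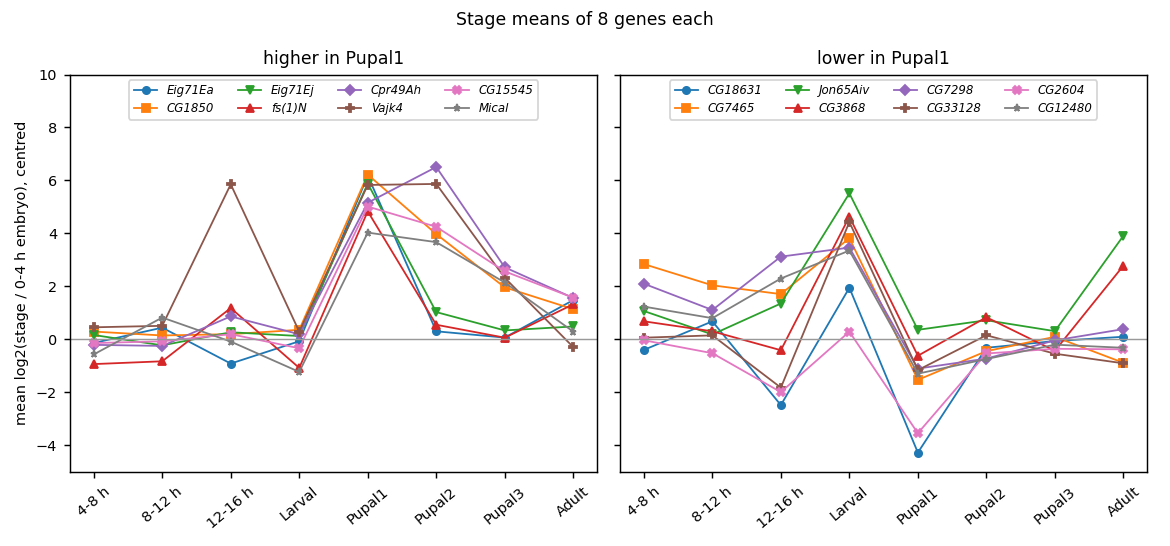
Stage means of centred log2 ratios over the 0-4 h embryo reference through the 8 stages for the 8 genes with the highest and the 8 with the lowest difference (2 arrays for Pupal1, 3 for every other stage). Eig71Ea and Eig71Ej peak at Pupal1 alone, Cpr49Ah and Vajk4 stay up at Pupal2, and Jon65Aiv and CG3868 are high again in adults.

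The passing probes were also looked at in other stages. For each passing probe the mean at another stage was set against the midpoint of its Larval and Pupal1 means, as a description. The probes were picked on those same arrays, the means are not adjusted for dye, and no share over all probes was taken. How long a difference lasted therefore cannot be read from these counts. Of the 109 probes that rose, 64 were nearer to Pupal1 than to Larval at pupal stage 2, 32 at pupal stage 3 and 37 in adults. Of the 128 that fell, 72 were nearer to Pupal1 at pupal stage 2, 70 at pupal stage 3 and 56 in adults. In 12-16 h embryos, 28 of the probes that rose (25.7%) had also been nearer to the Pupal1 level. The share was larger for the probes that fell, at 43 of 128 (33.6%), so an embryo-like level was not particular to the rises. Vajk4 was among the 28 that rose, with a mean of 5.86 in 12-16 h embryos and 5.83 in Pupal1, against 0.29 in Larval. CG12164 was another, with 4.12 in those embryos and 4.12 and 3.94 on the Pupal1 arrays, against 0.06, -1.62 and 0.01 in Larval. Cpr51A stood at 7.13 in 12-16 h embryos. Eig71Ea (-0.91) and CG1850 (0.20) did not share that earlier high level.

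Among the other leading genes were some with only a numbered name. CG1850 read 6.70 and 5.74 in Pupal1, against 0.14, 0.79 and 0.15 in Larval (5.97 ± 0.55, adjusted p = 2.27e-05), the smallest adjusted p of all probes. CG33998 rose on 2 probes (4.47 ± 0.74 and 3.92 ± 0.50). CG15545 (5.36 ± 1.03) and CG13023 (5.00 ± 1.17) had wider errors. Of the 188 genes with a passing probe 37 had more than 1 probe. In 25 of these all probes had one sign, in 3 more than 1 probe passed, and in 0 did probes pass in opposite directions. Of the 237 passing probes 46 carried no single gene symbol, 20 higher and 26 lower, with differences from -5.41 to 5.36. They were 0.444% of all such probes, against 1.42% of probes with a symbol.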

How the data were processed

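The deposited values are log2 ratios of Cy5 over Cy3 per spot, from glass-slide arrays scanned and quantified with ScanArray and GenePix software, per the labels. The authors kept hybridizations by a limit on the spread between duplicate spots, per the labels. How background was handled, ratios normalized and failed spots treated is not stated in those labels. Total RNA was labelled indirectly with random hexamers, per the labels. Values at the limits of the scale (633, or 0.0578%) were set missing, the sign was turned on arrays that carried the stage in Cy3, the median of each array was subtracted, and the 2 spots of a probe were averaged, so 47616 spots gave 23808 probes. Of these, 13454 carried 1 gene symbol, 153 several and 10201 none, and 12850 matched the RefSeq gene table.

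Differences were fitted with limma 3.58.1 in R 4.3.3 over 23 arrays with a term for each stage and a dye term for each probe, adjusted by Benjamini-Hochberg at 0.05. The procedure was tested on simulated data with noise that was alike on all arrays, which the data are not. It recovered 0% of 50 simulated differences of log2 size 1, 6% of 50 at size 2, 32% of 50 at size 3 and 70% of 50 at size 4. Most differences of 3 or less were thus missed even there. Array number limits the precision, and no read depth applies. Letters a and b gave no sign of pairing arrays: deviations of equal letters correlated at 0.01 and 0.06 (a and b). The deviations of the 2 Pupal1 arrays mirror each other, so these are not separate checks. Letter c could not be checked, as Pupal1 c was left out. The comparison, the 40 gene lists and the tests were chosen with earlier results of these data known, and the Osiris list was added after its values were seen. Named genes were the 15 highest and 15 lowest among passing probes whose groups did not overlap (1 symbol, all 5 arrays, 1 probe per gene), then of each list up to 4 passing members with the largest difference and members whose role is described. Some passing genes outside the lists were added after their values were seen, as stated where they are named. Alternatives covered centring, scaling, the dye term, the arrays used, array weights, duplicate spots and probes per gene.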

Additional observations from a re-analysis of the deposited data

How the results depend on the processing

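The total of 237 passing probes (109 higher, 128 lower) became 18 (7 and 11) without centring, where the median of all probes shifted to -0.38, and 0 with the 5 arrays alone, with or without a dye term. It became 157 with arrays scaled to one spread (54 and 103, so that 34.4% were higher, against 46.0%) and 38 with array weights (22 and 16). With close duplicate spots it was 81 of 3880 tested (49 and 32). With the 4 arrays named above as a block it was 121 (48 and 73), and with like arrays averaged 92 (47 and 45). Leaving out 1 array gave 100 to 817 (42 to 272 higher, 58 to 545 lower). With the letter as a replicate block 231 passed (102 and 129). Under that replicate block the vacuolar ATPase count became 5, the other 4 list counts given here moved by less than 1.5 times, and of the probes named in the text 8 no longer passed and 1 newly passed. The 8 digestive falls became 1 without centring, 0 with the 5 arrays alone, 3 with array weights, 4 with close duplicates, 3 with the 4 arrays as a block, 3 with like arrays averaged, and 1 to 9 with 1 array left out. The 3 vacuolar ATPase falls became 0 without centring, with the 5 arrays alone, with Cy5 arrays alone, with array weights and with like arrays averaged, 8 with 1 value per gene, and 0 to 6 with 1 array left out. The 6 Vajk and Tweedle rises became 1 without centring, 0 with the 5 arrays alone, 2 with one spread, with array weights and with close duplicates, 3 with the 4 arrays as a block, and 2 to 6 with 1 array left out. The 4 Cpr rises became 1 without centring, 0 with the 5 arrays alone, 2 with one spread, array weights and the 4 arrays as a block, and 2 to 5 with 1 array left out. The 2 chitin rises became 0 without centring, with the 5 arrays alone and with close duplicates, 4 with Cy5 arrays alone, 1 with one spread, array weights, the 4 arrays as a block and like arrays averaged, and 1 to 3 with 1 array left out. Of 778 list medians under the alternatives 26 moved by more than 0.71, the median standard error of a probe. The medians of lists in which few probes passed often changed side of 0, as for glue (0.20 without a dye term), serum and fat body proteins (-0.10 with one spread) and DNA replication (0.55 without Larval a), while the digestive median moved by less than 1.5 times in every alternative run. The cause of these shifts was not tested.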
